A study of Mus musculus with 18 samples.

Results

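Chromatin accessibility was examined at 8 genes of the IL-10 pathway: Il10ra and Il10rb, which encode the receptor chains, and Socs3, Bcl3, Sbno2, Etv3, Nfil3 and Il4ra, which are induced by IL-10 through STAT3 in macrophages. The genes were chosen by name, with earlier results of these data known, so comparisons of their peaks with all peaks are descriptions. A peak was assigned to a gene if it overlapped the gene body extended by 25 kb on both sides (mm9 GENCODE M1 annotation). These windows held 179 of the 194284 peaks of the union set, or 0.0921%. Il10ra had 23 peaks, Il10rb 25, Socs3 28, Bcl3 25, Sbno2 24, Etv3 17, Nfil3 13 and Il4ra 24. The authors classed 41 of the 179 peaks as promoter and 138 as distal. Of the 179 peaks, 42 lay over the body of another protein coding gene (16 over Ifnar2 in the Il10rb window, 7 over BC049352 in the Il10ra window, 6 over Pgs1 in the Socs3 window, 5 over Cblc in the Bcl3 window, and others over Gpx4, Polr2e, Stk11, Atp5d, Dos and Il21r), so those peaks cannot be tied to the member gene by position alone.

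IL-10 binds a receptor of IL-10Rα and IL-10Rβ, and the associated kinases JAK1 and TYK2 phosphorylate STAT3, which dimerizes, enters the nucleus and binds palindromic DNA sites. In macrophages this pathway restrains the inflammatory response to microbial products. SOCS3 is a feedback inhibitor of cytokine receptors, BCL3, SBNO2, ETV3 and NFIL3 are nuclear proteins that limit inflammatory transcription, and IL-4Rα is the shared receptor chain for IL-4 and IL-13.

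ATAC-seq, in which a transposase tags open chromatin, was performed on bone marrow-derived macrophages (BMDMs) of 12-week-old male Il10-/- mice on the C57BL/6J background, with 3 biological replicates per condition and 18 libraries in all. The 6 conditions were unstimulated and untreated, (+)-JQ1 alone (500 nM), IL-10 alone (10 ng/mL), LPS alone (50 ng/mL), LPS with (+)-JQ1, and LPS with IL-10. Treatments preceded LPS by 12 hours, LPS or PBS was present for the last 4 hours, and unstimulated cells stayed in culture for the same 16 hours. (+)-JQ1 blocks the binding of BET proteins to acetylated chromatin, and LPS activates macrophages through TLR4. Every group carried the Il10 deletion, so the cells could respond to added IL-10 but made none of their own, and no wild-type cells were analysed here. Samples with the same replicate number were biologically matched across conditions, but the main test did not use this matching. Its p-values rest on the spread between the 3 samples within conditions, estimated together over all 18 libraries. Cells were grown for 6 days in L929-conditioned medium.

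Libraries held between 12020526 and 25908198 counts in peaks. Accessibility is given as CPM, counts scaled to library size with TMM factors, where 1 CPM was about 18.8 reads in a library of average size. Spearman correlations between libraries of the same condition were 0.88 to 0.94, and those between conditions 0.82 to 0.92. Scaling mattered most for the untreated, unstimulated libraries, whose TMM factors were 1.24, 1.15 and 1.04 against 0.896 to 1.05 in the other 15. Of the 7 macrophage marker genes, 6 had a promoter peak, with mean accessibility from 7.08 to 39.3 CPM, and Spi1 was not matched in the annotation. Of the markers of other cells, Cd3e, Cd3d, Cd3g, Ly6g and Col1a2 had no promoter peak, Cd2 was at 1.08, Cd79a at 0.908 and Mpo at 2.02 CPM, whereas Pax5 (7.7 CPM), Elane (27.5 CPM), Col1a1 (14.5 CPM) and Pdgfra (23.0 CPM) had accessible promoters. In a bulk sample, fewer cells with an open site and less accessibility per cell cannot be told apart. The Il10 locus, targeted in these mice, held 3 peaks of 11.7 to 27.3 CPM, which does not check the genotype.

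A peak was called a differentially accessible region (DAR) at an FDR below 0.05 with an absolute log2 fold-change above 0.5, by the quasi-likelihood test of edgeR, with p-values adjusted by the Benjamini-Hochberg procedure across all 194230 tested peaks. All 179 member peaks passed the filter on low counts. IL-10 raised the accessibility of many of the member peaks, both without and with LPS. IL-10 alone gave 56 higher and 1 lower DARs among the 179 (31.3% and 0.559%), against 5.16% and 3.5% of all tested peaks. In LPS-stimulated cells, IL-10 gave 54 higher and 4 lower DARs (30.2% and 2.23%), against 4.26% and 4.51% of all peaks. The median log2 fold-change of the 179 peaks was 0.32 with IL-10 alone and 0.39 with LPS + IL-10 against LPS, where the medians of all tested peaks were -0.05 and -0.01. LPS alone gave 51 higher and 3 lower DARs (28.5% and 1.68%), against 11.7% and 10.2% of all peaks, with a median log2 fold-change of 0.25 against -0.03. (+)-JQ1 alone gave 31 higher and 5 lower DARs, against 7.85% and 3.15% of all peaks. With LPS, (+)-JQ1 gave 2 higher and 5 lower DARs, or 1.12% and 2.79% of the members, against 1.74% and 3.49% of all peaks, and the members' median log2 fold-change was 0.02.

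**Figure D1:**
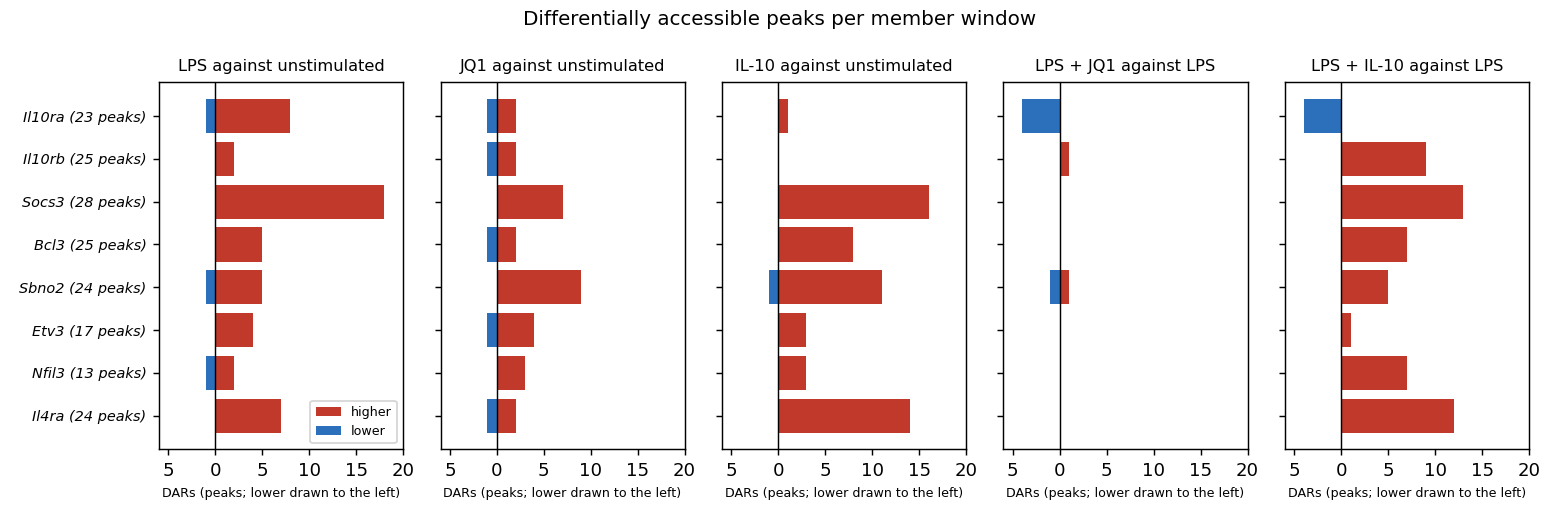
Number of DARs (horizontal axis, higher to the right in red, lower to the left in blue) in the window of each gene (vertical axis) for the 5 comparisons between conditions. IL-10 gave at least 1 higher DAR in 7 of 8 windows with LPS and in 7 of 8 without it. Etv3 with LPS (1 of 17 peaks) and Il10ra without it (1 of 23) had only 1. Of all tested peaks, 4.26% were higher with LPS and 5.16% without it. These shares are per peak, and the windows held 13 to 28 peaks each. How many of all gene windows held at least 1 higher DAR was not counted. LPS with (+)-JQ1 gave 7 DARs in all, 4 of them lower peaks at Il10ra.

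The comparisons with unstimulated cells depended on scaling, and those within LPS-stimulated cells did so less. With loess offsets that follow mean peak strength in place of TMM, the higher DARs numbered 32 for IL-10 alone, 31 for LPS and 0 for (+)-JQ1 alone. With scaling to total counts in peaks they numbered 38, 24 and 7, and the share of higher calls among all DARs of the whole table changed from 59.6% to 12.9% for IL-10 alone, from 53.5% to 25.4% for LPS and from 71.3% to 12.3% for (+)-JQ1 alone. For LPS + IL-10 against LPS, the count of higher member DARs was 55 with loess offsets and 63 with total counts, and the share of higher calls in the whole table changed from 48.6% to 60.5%. The unstimulated group was the lowest of the 6 in 21 of the 41 member promoter peaks and in 49 of the 138 member distal peaks. It was the lowest in 33.5% of all promoter peaks and in 14.6% of all distal peaks. Among the fits that each left out a replicate, the one without replicate 2 gave the fewest higher member DARs in the following comparisons. They numbered 31 for IL-10 alone, 10 for (+)-JQ1 alone and 35 for LPS + IL-10 against LPS. For LPS + IL-10 against LPS, every such fit, with 2 libraries per group, gave fewer than the 54 of the full fit. The part of the scaling factors in the comparisons with unstimulated cells was not tested.

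Il10ra (chr9:45061922-45077232, minus strand), the ligand-binding chain, was the one gene of the 8 with lower and no higher DARs for IL-10 in LPS-stimulated cells. LPS gave 8 higher DARs of 23, IL-10 alone 1 higher, and LPS + IL-10 against LPS gave 0 higher and 4 lower. At chr9:45058246-45059218, past the 3′ end of the gene and 18500 bases from its start, the 3 LPS libraries held 9.60, 12.5 and 12.6 CPM, the LPS + (+)-JQ1 libraries 5.83, 6.28 and 6.48 CPM, and the LPS + IL-10 libraries 7.52, 7.42 and 5.15 CPM. Unstimulated libraries held 6.49, 6.10 and 9.54 CPM in that peak. All LPS libraries thus lay above all libraries of both treated groups, and the unstimulated group overlapped both treated ones. The log2 fold-change was 0.64 for LPS, -0.89 for LPS + (+)-JQ1 and -0.79 for LPS + IL-10, where the LPS call was lost with total counts and without replicate 2, and the LPS + IL-10 call without replicate 3. A peak upstream of Il10ra, at chr9:45085158-45087177, rose from 4.75, 2.86 and 3.12 CPM in unstimulated cells to 8.04, 9.74 and 10.99 CPM with LPS. It held 6.91, 5.02 and 6.09 CPM with LPS + (+)-JQ1, and 4.67, 4.40 and 6.29 CPM with LPS + IL-10. The changes against LPS were -0.68 ± 0.19 (log2, SE, FDR 0.013) for (+)-JQ1 and -0.89 ± 0.19 (FDR 0.0003) for IL-10, and the (+)-JQ1 call was lost without replicate 2 or without replicate 3.

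The next 3 peaks were chosen after their values were seen. Of them, chr9:45057100-45058065 fell by 0.52 with (+)-JQ1 and by 0.65 with IL-10 on the log2 scale in LPS-stimulated cells. The peak over the 3′ end of the gene (chr9:45061559-45062218) fell by 0.77 with (+)-JQ1 and gave -0.58 with IL-10 (FDR 0.07). The wide peak over the 3′ side of the gene body (chr9:45062610-45068340) fell by 0.58 with IL-10, from 31.3 ± 2.84 to 20.98 ± 0.844 CPM (SD, n = 3), and gave -0.44 with (+)-JQ1, under the size threshold. In all, 3 Il10ra peaks were lower both in the 5 lower DARs of LPS + (+)-JQ1 and in the 4 of LPS + IL-10, which is 60.0% and 75.0% of each list, but both comparisons use the same LPS libraries. The test of the difference between the IL-10 effects with and without LPS called 3 Il10ra peaks, all with a negative difference. The Il10ra promoter (chr9:45076184-45077234) held 17.4 ± 2.82 CPM in unstimulated, 17.9 ± 0.71 in LPS and 17.3 ± 1.71 CPM in LPS + IL-10 libraries. It was higher with (+)-JQ1 alone, at 28.4 ± 1.81 CPM (log2 fold-change 0.70, FDR 6.2e-05), a call that was lost with loess offsets and with total counts. With LPS + (+)-JQ1 it held 21.3, 27.0 and 25.7 CPM, above all 3 LPS libraries, with a log2 fold-change of 0.47 that was under the size threshold. The largest LPS response in the window was at chr9:45039415-45040646, within the neighbouring gene BC049352, where accessibility rose from 2.03 ± 0.197 to 7.38 ± 2.31 CPM and stayed at 6.82 ± 1.58 and 6.76 ± 2.43 CPM with (+)-JQ1 and IL-10.

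**Figure D2:**
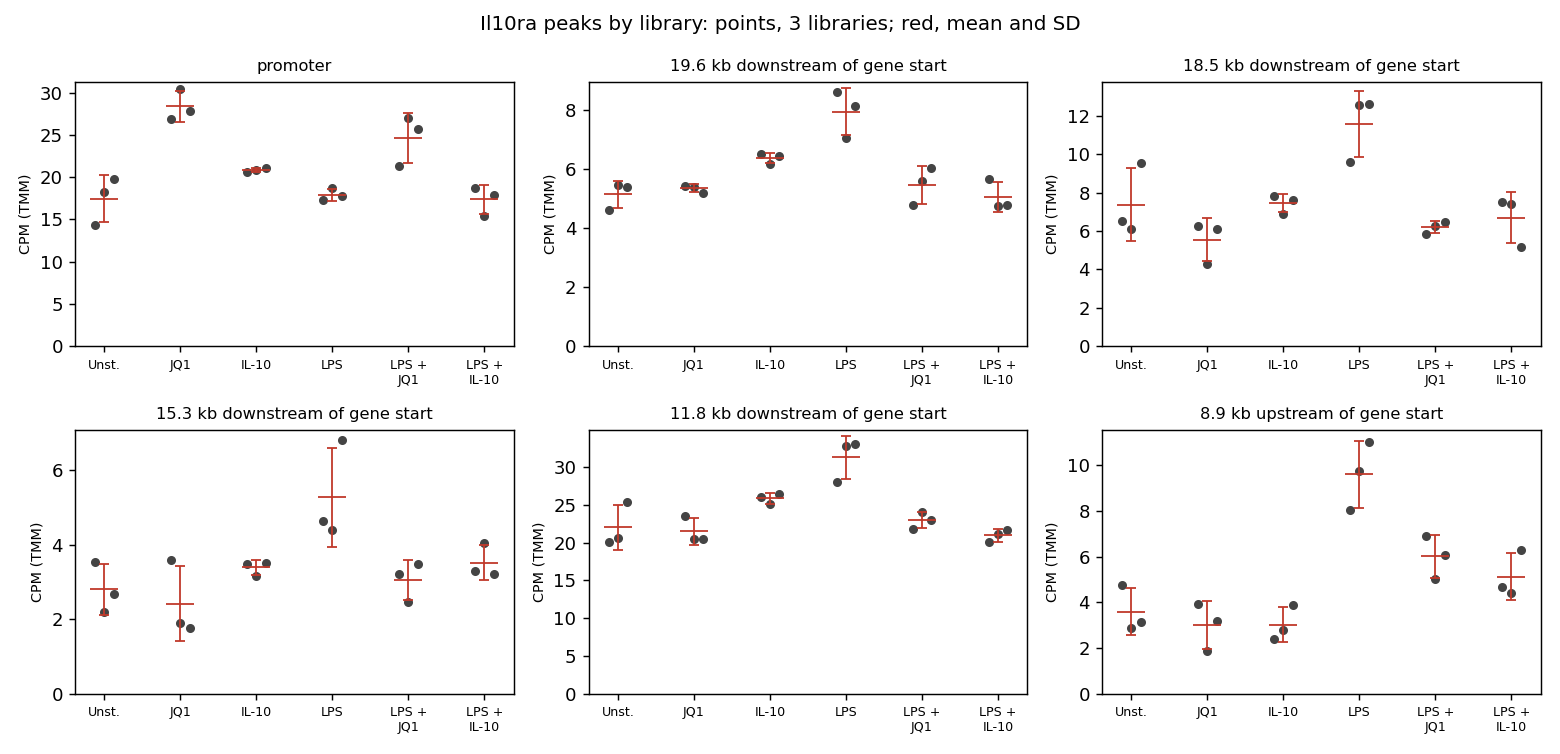
Accessibility (CPM after TMM scaling, vertical axis) of 6 Il10ra peaks in the 6 conditions (horizontal axis). Points are the 3 libraries, and red bars the mean and SD. In the 5 peaks other than the promoter, all 3 LPS libraries lie above all LPS + (+)-JQ1 and all LPS + IL-10 libraries. These 5 were drawn because they were lower DARs in either comparison with LPS, so the choice favours this separation.

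Accessibility was counted over whole peaks, so where within a peak it fell is not known. The central stretches of the 2 Il10ra peaks with the largest decreases for LPS + IL-10 against LPS are printed. They read, in the direction of the gene:
Il10ra downstream peak, chr9:45058658-45058807, minus strand: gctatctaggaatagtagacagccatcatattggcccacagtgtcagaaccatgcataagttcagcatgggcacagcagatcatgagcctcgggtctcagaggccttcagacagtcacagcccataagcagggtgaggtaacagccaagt
Il10ra upstream peak, chr9:45086093-45086242, minus strand: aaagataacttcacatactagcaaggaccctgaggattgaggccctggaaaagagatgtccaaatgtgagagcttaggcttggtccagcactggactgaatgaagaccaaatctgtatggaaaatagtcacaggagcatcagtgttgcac
Of 5 motifs searched on both strands in the central 500 bases of each of the 5 Il10ra peaks lowered in LPS-stimulated cells, the downstream peak held none and the upstream peak held 1 copy of TTCNNNGAA, the loose STAT core, outside the printed stretch. Of the other 3, chr9:45057100-45058065 held 1 kappaB match, chr9:45061559-45062218 held 1 copy of the interferon response element, and chr9:45062610-45068340 held none. The motifs searched were TTCCNGGAA, TTCNNNGAA, TGANTCA, GAAANNGAAA and the kappaB consensus.

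Il10rb (chr16:91406409-91426074, plus strand) encodes the signalling chain that is shared with other cytokines of the IL-10 family. Of its 25 peaks, 9 were higher in LPS + IL-10 than in LPS, and 0 were DARs with IL-10 alone. All 9 lay over the annotated body of Ifnar2, the type I interferon receptor gene that overlaps Il10rb, so they cannot be assigned to either gene by position. The difference of the IL-10 effects passed the test at 3 peaks. At chr16:91401183-91405815, at the promoter side of the gene, the unstimulated libraries held 7.83, 8.96 and 10.7 CPM, IL-10 alone 11.01, 10.3 and 13.4 CPM, LPS 10.7, 9.99 and 10.8 CPM and LPS + IL-10 22.8, 17.6 and 20.7 CPM. The LPS + IL-10 libraries lay above all others. The log2 fold-change was 0.96 ± 0.14 (SE, FDR 1.9e-07) against LPS, 0.33 (FDR 0.14) for IL-10 alone, and the interaction was 0.62 (FDR 0.044), a call that was lost when any of the 3 replicates was left out and with DESeq2's size factors. A second peak, chr16:91384864-91388560, overlaps a start site of Ifnar2. It held 7.03, 5.94 and 4.78 CPM with LPS and 13.0, 9.56 and 10.6 CPM with LPS + IL-10 (log2 fold-change 0.89, FDR 2.8e-05). With (+)-JQ1 in place of IL-10 it held 9.29, 7.26 and 9.42 CPM (0.54, FDR 0.036, lost without replicate 2 or without replicate 3, and with DESeq2). The other Il10rb peaks called with LPS + IL-10 had log2 fold-changes between 0.51 and 1.52, and the promoter peak itself (chr16:91405864-91407251) was not among them, at 38.3 ± 4.15 CPM with LPS and 38.7 ± 2.84 CPM with LPS + IL-10. Over the 3′ end of the gene (chr16:91425987-91435802), (+)-JQ1 alone lowered accessibility from 34.9 ± 3.92 to 21.4 ± 2.51 CPM (-0.70, FDR 3.7e-05). That was the 1 call with (+)-JQ1 alone, of 18 among the named peaks, that held under all 12 alternatives.

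Socs3 (chr11:117827393-117831361, minus strand) had the most responsive window after LPS, with 18 of 28 peaks higher. IL-10 alone raised 16 of them and IL-10 in LPS-stimulated cells 13. At the promoter (chr11:117830075-117830906), unstimulated libraries held 15.2, 17.4 and 19.1 CPM, IL-10 libraries 59.5, 68.2 and 71.7 CPM, LPS libraries 76.4, 64.8 and 64.7 CPM and LPS + IL-10 libraries 63.4, 59.6 and 48.5 CPM. Without stimulation every IL-10 library was above every untreated one, whereas with LPS all 3 treated libraries lay below the lowest LPS library. The log2 fold-change was 1.99 ± 0.14 (SE, FDR 5.7e-23) for LPS, 1.95 ± 0.14 (FDR 2.2e-20) for IL-10 alone and -0.26 ± 0.13 (FDR 0.21) for LPS + IL-10 against LPS. The interaction was -2.21 ± 0.19 (FDR 7.1e-15), and it held under all 12 alternatives. The neighbouring peak over the 3′ part of the gene (chr11:117825774-117828493) rose further when both were given. It held 6.49, 6.54 and 6.90 CPM unstimulated, 25.0, 26.5 and 30.0 CPM with IL-10, 33.7, 31.3 and 32.6 CPM with LPS, and 66.9, 64.0 and 58.7 CPM with LPS + IL-10. The LPS + IL-10 libraries were all above the LPS ones, by 0.96 ± 0.14 on the log2 scale (FDR 2e-07), and the IL-10 effect was still smaller than without LPS (interaction -1.07, FDR 0.00036, lost without replicate 2). Of the LPS + (+)-JQ1 libraries, replicate 1 stood apart in this peak at 44.3 CPM, against 22.5 and 23.9 CPM in the other 2.

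The downstream peak chr11:117824483-117825654 rose from 22.3 ± 2.92 to 66.0 ± 4.24 CPM with IL-10 alone (1.56) and to 52.5 ± 2.65 CPM with LPS (1.23), and held 61.7 ± 9.53 CPM with both, which was 0.23 above LPS (FDR 0.29). At chr11:117820649-117821831 the same groups held 13.4 ± 2.43, 28.8 ± 1.03, 21.3 ± 0.977 and 25.7 ± 0.483 CPM. An upstream peak, chr11:117843410-117845915, did not pass with IL-10 alone (0.31, FDR 0.46) but rose from 3.42 ± 0.215 with LPS to 6.88 ± 0.274 CPM with LPS + IL-10 (1.01, FDR 0.00013). (+)-JQ1 gave no DAR in the Socs3 window in LPS-stimulated cells. With (+)-JQ1 alone 7 peaks were higher, among them the promoter at 27.0 ± 2.45 CPM (0.64), which became -0.03 with loess offsets.

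The Socs3 flank just before the coding transcript start is printed because the promoter peak that holds it rose with IL-10 and with LPS. It reads, in the direction of the gene and with the one copy of TTCCNGGAA in capitals:
Socs3 flank, chr11:117830501-117830650, minus strand: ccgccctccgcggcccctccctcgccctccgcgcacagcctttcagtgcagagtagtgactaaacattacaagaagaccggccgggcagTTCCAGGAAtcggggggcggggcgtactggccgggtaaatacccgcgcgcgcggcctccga
Read in the direction of the gene, this copy begins 61 bases and ends 53 bases before the start at chr11:117830500. TTCCNGGAA, the STAT palindrome, was found once each in 10 of the 82 member peaks that rose with IL-10 in either comparison, searching the whole peak. That is 12.2%, against 5 of the 97 other member peaks (5.15%) and 4.16% of all tested peaks, but the median width of these peaks was 1602, 1256 and 956 bases, and wider peaks hold more sequence to search. The 10 were 5 peaks of Socs3, 2 of Sbno2, 2 of Il4ra and 1 of Nfil3. Stretches of 61 bases around it, in the direction of the gene, are printed for 3 other Socs3 peaks, the last 2 over Pgs1:
Socs3 downstream, chr11:117821794-117821854, minus strand: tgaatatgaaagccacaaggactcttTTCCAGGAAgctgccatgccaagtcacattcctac
Socs3 upstream, first peak over Pgs1, chr11:117851656-117851716, minus strand: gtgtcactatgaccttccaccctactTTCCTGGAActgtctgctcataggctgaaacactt
Socs3 upstream, second peak over Pgs1, chr11:117856771-117856831, minus strand: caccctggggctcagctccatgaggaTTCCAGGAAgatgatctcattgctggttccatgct

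Bcl3 (chr7:20393811-20408119, minus strand) encodes an atypical IκB protein that binds NF-κB p50 and p52. IL-10 alone gave 8 and LPS + IL-10 gave 7 higher DARs of 25, with none lower in either. The strongest promoter peak was at a start site inside the gene (chr7:20401743-20403339). There the unstimulated libraries held 18.8, 22.5 and 24.6 CPM, IL-10 libraries 58.6, 61.2 and 58.1 CPM, LPS libraries 54.0, 48.8 and 50.5 CPM and LPS + IL-10 libraries 56.0, 57.5 and 48.6 CPM. The last 2 groups overlapped. The log2 fold-changes were 1.43 ± 0.14 (SE) for IL-10 alone, 1.22 ± 0.14 for LPS and 0.08 (FDR 0.78) for LPS + IL-10 against LPS, with an interaction of -1.35 (FDR 2.8e-07) that held under all 12 alternatives. Further upstream, inside the gene, chr7:20403701-20404277 rose in each comparison: from 2.19 ± 0.148 CPM unstimulated to 5.82 ± 0.8 with IL-10 and 5.12 ± 0.327 with LPS, and to 9.22 ± 0.453 CPM with both (0.85 above LPS, FDR 0.00014). Downstream of the gene, chr7:20388255-20392949, chosen after its values were seen, held 11.6, 12.5 and 11.7 CPM unstimulated and 33.8, 27.8 and 32.4 CPM with IL-10. With LPS it held 18.9, 16.4 and 18.7 CPM, and 29.9, 36.0 and 30.4 CPM with LPS + IL-10, so that the treated libraries lay above the untreated ones in both settings (1.39 and 0.83, FDR 3.2e-13 and 1.1e-06). The upstream start site (chr7:20408160-20409353) rose with IL-10 alone (0.76, lost with loess offsets), and LPS + IL-10 gave 0.07 (FDR 0.81).

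Sbno2 (chr10:79520161-79565443, minus strand), a DExD/H box helicase-like co-repressor, had 11 higher and 1 lower DARs of 24 with IL-10 alone and 5 higher with LPS + IL-10. The largest rise was on the Gpx4 side of the window, at chr10:79517976-79519265, which is also a promoter of Gpx4. Unstimulated libraries held 4.42, 6.43 and 5.48 CPM, IL-10 libraries 16.9, 12.8 and 12.9 CPM, LPS libraries 5.74, 5.89 and 4.72 CPM, LPS + (+)-JQ1 libraries 2.23, 3.66 and 3.80 CPM and LPS + IL-10 libraries 14.0, 10.0 and 12.4 CPM. IL-10 libraries were above the untreated ones with and without LPS, and the LPS + (+)-JQ1 libraries below the LPS ones. The log2 fold-changes were 1.37 ± 0.17 (SE, FDR 1.4e-09) for IL-10 alone, 1.15 ± 0.17 (FDR 7.9e-08) for LPS + IL-10 and -0.72 ± 0.19 (FDR 0.0087) for LPS + (+)-JQ1, a call that was lost without replicate 1 or without replicate 2. A peak of 12664 bases over the 3′ end of the gene (chr10:79519750-79532414), chosen after its values were seen, held 31.4 ± 0.752 CPM with LPS and 61.5 ± 2.13 CPM with LPS + IL-10 (0.97, FDR 9.8e-09). Far downstream, chr10:79495505-79497217 went the other way with LPS, from 24.2 ± 7.42 to 14.97 ± 1.07 CPM (-0.70, lost without replicate 3), and held 27.6 ± 2.26 CPM with LPS + (+)-JQ1, which was 0.89 ± 0.15 above LPS (FDR 3.5e-06) under all 11 alternatives. Inside the gene, chr10:79561265-79562063 rose with LPS (1.53, from 3.69 ± 0.657 to 10.7 ± 1.00 CPM), and LPS + IL-10 gave 8.68 ± 1.56 CPM (-0.30, FDR 0.24). The strongest promoter peak (chr10:79537389-79538417) was at a start site inside the gene, 27540 bases from the gene's start. This peak and the Stk11 promoter in the same window (chr10:79578359-79579549) were higher than in unstimulated cells with LPS, with (+)-JQ1 and with IL-10 each. The rises were 0.58 to 0.95 on the log2 scale, in comparisons that share the 3 unstimulated libraries. All 6 of these calls were lost with loess offsets.

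Etv3 (chr3:87329329-87344078, plus strand), an ETS-family repressor, was dominated by 1 peak of 21539 bases over the gene body and beyond (chr3:87334143-87355682). It held 53.2, 52.4 and 54.7 CPM unstimulated, 37.6, 33.3 and 37.7 CPM with (+)-JQ1 alone, and 86.5, 81.8 and 88.9 CPM with IL-10 alone. With LPS the libraries held 58.7, 65.0 and 69.7 CPM, with LPS + (+)-JQ1 42.1, 53.9 and 50.4 CPM, and with LPS + IL-10 97.6, 111.6 and 81.4 CPM. The groups did not overlap in any of these pairs, with IL-10 on the high side and (+)-JQ1 on the low side. The log2 fold-changes were 0.68 (FDR 0.0002) and 0.59 (FDR 0.00077) for IL-10 without and with LPS, and -0.56 (FDR 0.0013) and -0.40 (FDR 0.058) for (+)-JQ1. The IL-10-alone call was lost with total counts, with loess offsets and without replicate 2, and the LPS + IL-10 call and the (+)-JQ1 call without replicate 2. LPS gave 4 higher DARs of 17 in this window, including the promoter (chr3:87329402-87330318), which went from 14.8 ± 2.48 to 21.4 ± 0.969 CPM (0.53, FDR 0.0021), lost under 5 of 12 alternatives.

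Nfil3 (chr13:53062578-53076442, minus strand), a basic leucine zipper repressor, had 3 higher DARs of 13 with IL-10 alone and 7 with LPS + IL-10. The downstream peak chr13:53053956-53056794 held 4.22, 3.02 and 2.57 CPM unstimulated, 2.02, 2.30 and 1.73 CPM with LPS, and 5.49, 6.20 and 6.75 CPM with LPS + IL-10. Of these 3 groups the LPS libraries were the lowest and the LPS + IL-10 libraries the highest, without overlap. The changes were -0.68 (FDR 0.023) for LPS, 0.60 (FDR 0.047) for IL-10 alone and 1.60 ± 0.22 (SE, FDR 1e-08) for LPS + IL-10, and the interaction was 1.00 (FDR 0.024). The LPS call was lost without replicate 1, the IL-10-alone call under 6 of 12 alternatives, and the interaction when any of the 3 replicates was left out. The adjacent peak chr13:53056801-53059251 rose in both settings, from 6.62 ± 0.6 to 13.6 ± 1.37 CPM with IL-10 alone and from 5.66 ± 0.472 to 11.8 ± 0.451 CPM with LPS (log2 fold-change 1.04 and 1.05, interaction 0.01 with an SE of 0.21). By contrast, the Nfil3 promoter (chr13:53075759-53077327) was higher with (+)-JQ1 alone (78.2 ± 6.79 against 46.1 ± 9.68 CPM, 0.76) and held 60.5 ± 5.19, 64.8 ± 7.53 and 58.2 ± 3.38 CPM in LPS, LPS + (+)-JQ1 and LPS + IL-10 libraries. That difference turned to -0.01 with loess offsets.

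Il4ra (chr7:132695785-132722986, plus strand) had the largest IL-10 responses, and they lay along the 3′ part of the gene and past its end. IL-10 alone gave 14 and LPS + IL-10 gave 12 higher DARs of 24, with none lower. The peak of 11359 bases at the 3′ end (chr7:132714615-132725974) held 41.5, 41.1 and 43.3 CPM unstimulated and 158.4, 144.3 and 160.2 CPM with IL-10. With LPS it held 57.6, 51.1 and 46.2 CPM, and 209.0, 201.3 and 170.1 CPM with LPS + IL-10. IL-10 libraries were above all untreated ones in both settings, by 1.88 ± 0.14 (SE, FDR 2.2e-20) and 1.90 ± 0.14 (FDR 6.7e-22) on the log2 scale, and the interaction was 0.03 ± 0.19 (FDR 0.96). With (+)-JQ1 the same peak held 43.8 ± 3.09 CPM alone and 49.2 ± 5.66 CPM with LPS. Just downstream, chr7:132726120-132728297 held 6.89, 10.4 and 9.10 CPM unstimulated, 54.4, 55.5 and 59.2 CPM with IL-10, 14.0, 13.5 and 14.5 CPM with LPS and 70.0, 62.4 and 47.4 CPM with LPS + IL-10. The log2 fold-changes were 2.67 ± 0.15 (FDR 3.6e-28) and 2.10 ± 0.14 (FDR 5e-23). Within the gene, chr7:132712379-132714337 went from 2.89 ± 0.651 to 9.34 ± 0.0523 CPM with IL-10 alone and from 2.54 ± 0.231 to 15.2 ± 1.07 CPM with LPS + IL-10 (1.71 and 2.57). The interaction there was 0.87 (FDR 0.023), and it was lost without replicate 1 or without replicate 2. The 6 IL-10 calls at these 3 peaks held under every alternative tried.

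Upstream of Il4ra, chr7:132682639-132687456, chosen after its values were seen, held 10.98 ± 1.67 CPM unstimulated, 30.7 ± 3.95 with IL-10, 13.6 ± 2.49 with LPS and 40.9 ± 0.978 CPM with LPS + IL-10 (1.48 and 1.59). The promoter peak (chr7:132695390-132696028) held 28.5 ± 1.58 CPM with LPS and 27.7 ± 2.44 CPM with LPS + IL-10 (-0.04, FDR 0.89), while IL-10 alone, LPS alone and (+)-JQ1 alone were each above the unstimulated 17.8 ± 4.39 CPM by 0.67 to 0.82. These 3 promoter calls were lost with loess offsets. The STAT palindromes of the 2 strongest Il4ra peaks are printed, with TTCCNGGAA in capitals:
Il4ra 3′ end peak, chr7:132725099-132725159, plus strand: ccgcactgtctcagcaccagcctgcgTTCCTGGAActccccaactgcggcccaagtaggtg
Il4ra downstream peak, chr7:132726272-132726332, plus strand: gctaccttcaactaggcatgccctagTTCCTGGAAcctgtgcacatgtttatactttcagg
Those of 2 Sbno2 peaks that rose with IL-10 alone, and also with (+)-JQ1 alone, read:
Sbno2 gene body, chr10:79534034-79534094, minus strand: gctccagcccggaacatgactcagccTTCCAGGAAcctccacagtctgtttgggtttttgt
Sbno2 near the start, chr10:79563922-79563982, minus strand: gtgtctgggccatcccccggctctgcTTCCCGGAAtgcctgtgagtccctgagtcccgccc

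**Figure D3:**
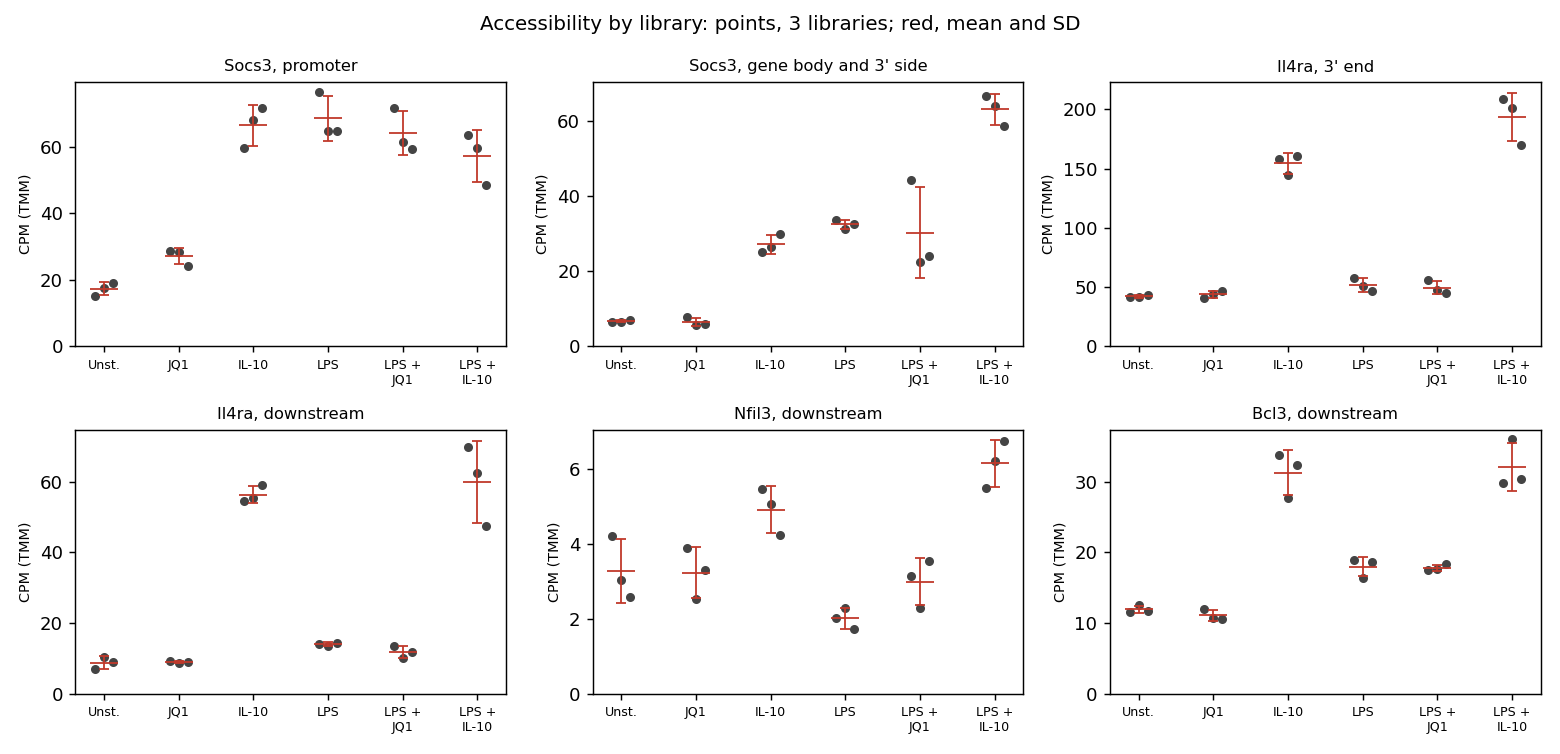
Accessibility (CPM after TMM scaling, vertical axis) of 6 peaks in the 6 conditions (horizontal axis). Points are the 3 libraries, and red bars the mean and SD. At the Socs3 promoter the IL-10-alone and LPS-alone libraries sit at 59.5 CPM or more and the unstimulated ones at 19.1 CPM or less. At the Il4ra 3′ end libraries without IL-10 reach 57.6 CPM and those with it start at 144.3 CPM.

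**Figure D4:**
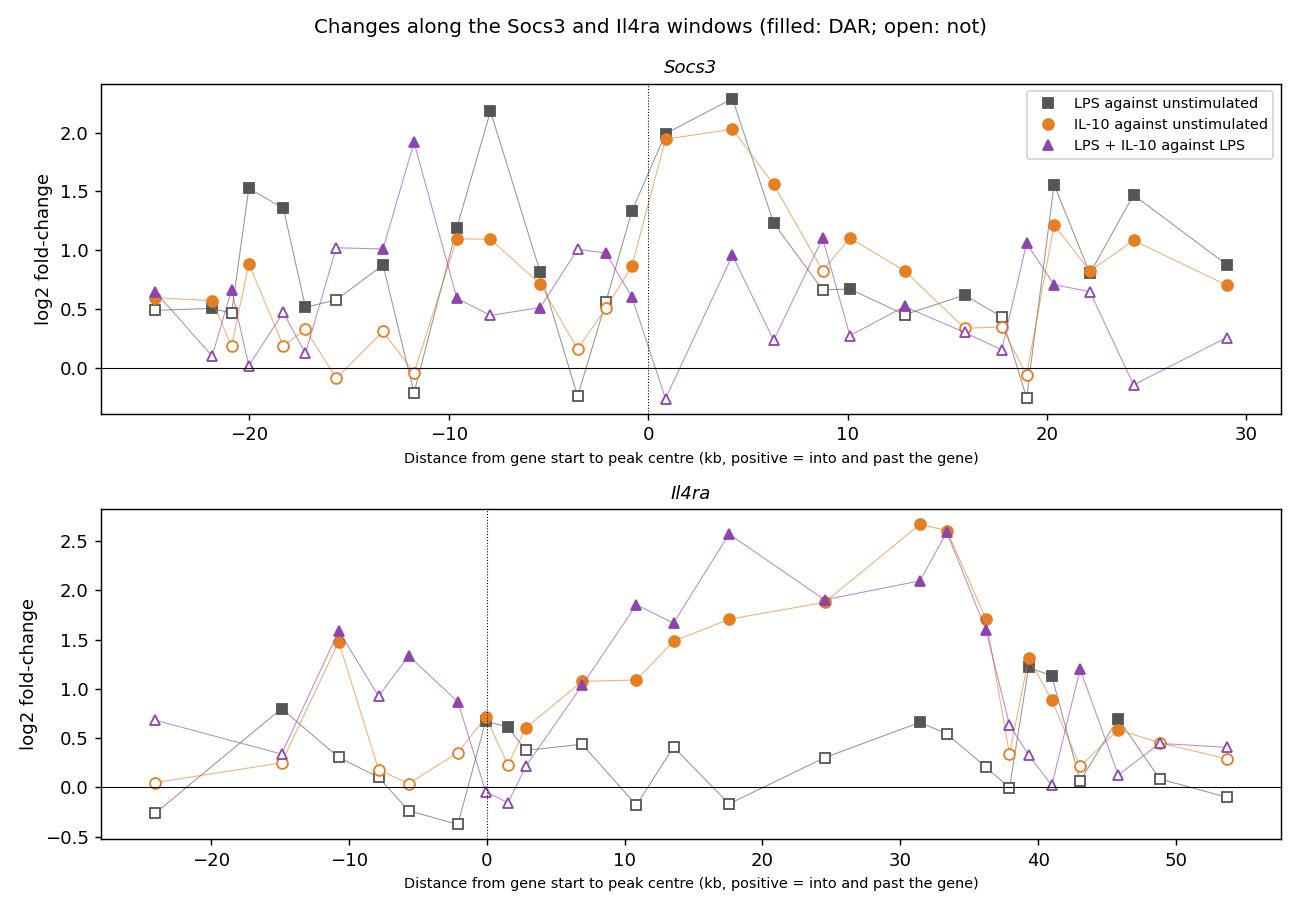
Log2 fold-change (vertical axis) of each peak of the Socs3 window (top) and the Il4ra window (bottom) by distance from the gene start to the peak centre in kb (horizontal axis), for LPS, IL-10 alone and LPS + IL-10 against LPS. Filled symbols are DARs. At Socs3 the LPS and IL-10-alone values reach 2.29 and 2.03 in the peak next to the promoter, and at Il4ra the IL-10 comparisons reach 2.67 and 2.59 in peaks past the 3′ end of the gene. The peak with 2.59 fell outside the DARs with at least 50 mean normalized counts. Among those, the largest LPS + IL-10 change at Il4ra was inside the gene, at chr7:132712379-132714337.

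Summed over all peaks of a window, the 3 IL-10 libraries lay above the 3 untreated ones at all 8 genes without LPS. With LPS they did so at 7 genes and lay below at Il10ra. The LPS-alone libraries also lay above the same untreated, unstimulated ones at all genes but Il10rb and Sbno2. Those with (+)-JQ1 alone did so at all but Il10rb and Etv3. How often this holds over all gene windows was not counted. The log2 ratio of the summed CPM, without and with LPS, was 1.26 and 1.13 for Il4ra, 1.06 and 0.29 for Socs3, 0.86 and 0.32 for Bcl3, 0.50 and 0.30 for Nfil3, 0.47 and 0.23 for Sbno2, 0.43 and 0.24 for Etv3, 0.30 and 0.39 for Il10rb, and 0.18 and -0.24 for Il10ra. With scaling to total counts the ratio for Il10ra without LPS became -0.03. Il4ra went from 198.0 ± 11.3 CPM unstimulated to 473.7 ± 23.1 with IL-10, and from 262.4 ± 18.2 with LPS to 573.5 ± 34.4 CPM with LPS + IL-10. For LPS + (+)-JQ1 against LPS, the summed ratios ran from -0.13 at Il10ra to 0.11 at Nfil3.

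Across the 179 peaks, the log2 fold-changes of IL-10 without and with LPS, which share no library, had a Pearson r of 0.42 and a Spearman rho of 0.19, against 0.19 and 0.15 over all tested peaks. Peaks within a window are neighbours and come from the same libraries. Of the 56 higher DARs without LPS and the 54 with LPS, 28 peaks were in both lists (50.0% and 51.9%). The same overlap was not counted over all tested peaks, so it cannot be called particular to the members. The test of the difference between the 2 effects, taken as the log2 effect with LPS minus that without, was positive at 6 peaks and negative at 22 (3.35% and 12.3%), against 2.01% and 5.9% of all peaks. Among the 22 were 3 Il10ra peaks, which were lower DARs with IL-10 under LPS and no DARs with IL-10 alone. Negative differences were found at 24.4% of the member promoter peaks, against 16.9% of all promoter peaks, and at 8.7% of the member distal peaks, against 3.33% of all distal peaks. This balance turned with the scaling: loess offsets gave 15 positive and 9 negative member peaks, and total counts 17 and 13, while the share of positive differences among those called in the whole table went from 25.4% to 51.4% and 70.3%. The same difference for (+)-JQ1 was positive at 1 member peak and negative at 10, against 0.649% and 3.19% of all peaks, and with loess offsets the counts were 8 and 0. The 1 positive peak, chr7:20406480-20407195 in Bcl3, gave -1.05 with (+)-JQ1 alone and 0.66 under LPS (FDR 0.27).

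**Figure D5:**
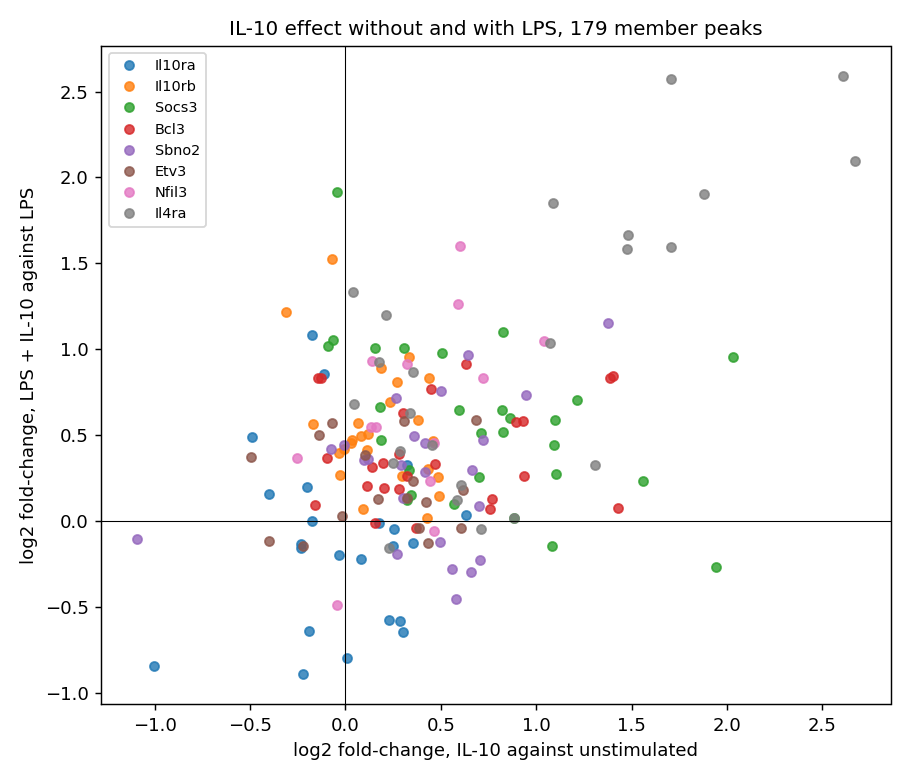
Log2 fold-change for IL-10 in LPS-stimulated cells (vertical axis) against that in unstimulated cells (horizontal axis) for the 179 member peaks, coloured by gene. Il4ra peaks extend to the upper right, to 2.67 and 2.59, Socs3 peaks to the right, and Il10ra peaks lie lowest, down to -0.89.

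The other genes of the pathway are described by counts, with the member peaks left out. Among genes of receptor signalling, LPS + IL-10 against LPS gave lower DARs at 8 of 29 peaks of Cish and 3 of 16 of Socs1, which encode feedback inhibitors, and at 7 of 25 peaks of the kinase gene Tyk2, with none higher at these 3 genes. The kinase gene Jak1 had 1 higher and 1 lower of 47, and Ptpn6 (28 peaks) and Pias3 (20 peaks) had 0 higher and 0 lower. Of all tested peaks, 4.26% were higher and 4.51% lower in this comparison. LPS alone gave 11 higher and 2 lower at Cish, 8 higher at Socs1 and 10 higher at Tyk2. It gave 3 higher and 4 lower at Jak1, 5 and 2 at Ptpn6 and 4 and 0 at Pias3. Of all tested peaks, LPS raised 11.7% and lowered 10.2%. Stat3 itself had 16 higher DARs of 44 with LPS, 4 higher with IL-10 alone and 2 higher with LPS + IL-10. Among 14 other genes that respond to IL-10 or STAT3, with 241 peaks, IL-10 alone gave 41 higher and 10 lower DARs and LPS + IL-10 gave 44 higher and 3 lower. These were 17.0% and 4.15% of the peaks without LPS, against 5.16% and 3.5% of all tested peaks, and 18.3% and 1.24% with LPS, against 4.26% and 4.51%. Tnip3, an inhibitor of NF-κB signalling, had 16 of the 44, and the phosphatase gene Dusp1 had 7. The 13 Mcl1 peaks included 9 that were higher with IL-10 alone, and 2 that were higher with LPS + IL-10. Among 9 cytokine receptor genes, with 175 peaks outside the member windows, IL-10 alone gave 28 higher and 1 lower DARs and LPS + IL-10 gave 46 higher and 6 lower, or 16.0% and 0.571%, and 26.3% and 3.43%, of the peaks. Csf3r, the G-CSF receptor gene, had 16 of the 46, Ifnar1 12, Il21r, the neighbour of Il4ra, 8, Il6ra 6 and Ifnar2 4. The 6 lower peaks were all of Il2rg, which encodes the common gamma chain. The median log2 fold-change with LPS + IL-10 was 0.26 for the response genes and 0.37 for the receptor chains, against -0.01 for all peaks.

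Motif letters were counted in the central 500 bases of every tested peak. TTCCNGGAA was in 4 of the 82 member peaks that rose with IL-10 (4.88%), in 1 of the other 97 (1.03%) and in 1.59% of all tested peaks. The looser TTCNNNGAA, which includes every copy of TTCCNGGAA, was in 13.4% of both groups of members and in 14.3% of all peaks. TGANTCA, the AP-1 site, was in 10 of the 82 (12.2%), 18 of the 97 (18.6%) and 18.1% of all peaks. GAAANNGAAA, the interferon response element, was in 8.54%, 8.25% and 7.19%. The kappaB consensus was in 3 of the 82 (3.66%), 12 of the 97 (12.4%) and 5.69% of all peaks. A match is a run of letters and no evidence of binding, and its absence from a window says nothing about a factor.

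The protein coding genes whose summed accessibility followed a member most closely over the 18 libraries, among 18813 compared, were Rnf135 and Ptprh for Il10ra (r = 0.93 and 0.92), Gda and Csf3r for Il10rb (0.95 and 0.95), Cdh3 and Aig1 for Socs3 (0.96 and 0.96), Etv3 and Pira5 for Bcl3 (0.95 and 0.94), Dhrs1 and Relt for Sbno2 (0.97 and 0.97), Tesk1 and Fyb for Etv3 (0.96 and 0.95), Ifnar1 and Piwil2 for Nfil3 (0.97 and 0.97), and Ust and Gcnt2 for Il4ra (0.98 and 0.98). All values share the same libraries and scaling, and the correlations are descriptions over conditions.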

How the data were processed

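ATAC-seq libraries of 6 conditions with 3 biological replicates each were analysed. PEPATAC was the authors' pipeline: Bowtie2 mapped reads to mm9 and MACS2 found peaks in each sample, which they merged into a union set. They deposited raw read counts per peak, with ChIPseeker promoter and distal classes (1000 bases before to 100 after a start site). The counting tool is not given in the sources used here, and neither is whether reads were shifted for the transposase. A further 6 sample columns of the table were not used here. Counts in peaks were 12020526 to 25908198 per library, which sets the counting precision.

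Counts were fitted with edgeR 4.0.16 (R 4.3.3, limma 3.58.1): filterByExpr, TMM scaling, 6 groups, quasi-likelihood tests of 5 contrasts and 2 interactions, Benjamini-Hochberg adjustment over 194230 peaks. DESeq2 1.42.0 was an alternative. The script was tested on simulated data. The members, gene lists and markers were chosen with earlier results of these data known. Lists covered genes of receptor signalling (given by gene, since 1 of them is not reported here), other response genes, cytokine receptor chains, and markers of macrophages, T cells, B cells, neutrophils and fibroblasts. Named per gene were the strongest promoter peak, the strongest other peak and, in each of the 5 contrasts, the DAR with the largest change and at least 50 mean normalized counts; other named peaks were chosen after their values were seen. Peak coordinates are as the authors' file gives them. Motifs were searched in mm9 sequence (Python 3.11.15, pysam 0.24.0). Alternatives were other scalings (total counts, DESeq2 size factors, loess offsets), only the groups compared, sequencing lane as a covariate, no filter on low counts, stricter and looser thresholds, other windows, leaving out each replicate, and the replicate number as a block. The pairing of replicate numbers comes from the series' design text. Deviations from group means of 45 same-numbered pairs of libraries had a mean correlation of 0.00573, and those of 90 other pairs -0.00286.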

Additional observations from a re-analysis of the deposited data

Results flagged for a closer look

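The effect of IL-10 differed between LPS-stimulated and unstimulated cells in the interaction test at these named peaks, given as the log2 effect with LPS minus that without. At Socs3 the difference was -2.21 at the promoter (chr11:117830075-117830906), -1.33 at chr11:117824483-117825654, -1.07 at chr11:117825774-117828493 and -0.83 at chr11:117820649-117821831. At Bcl3 it was -1.35 at chr7:20401743-20403339 and -0.69 at chr7:20408160-20409353. At Sbno2 it was -0.93 at chr10:79537389-79538417, -0.95 at chr10:79561265-79562063 and -1.04 at chr10:79578359-79579549. At Il4ra it was -0.76 at the promoter (chr7:132695390-132696028), -0.87 at chr7:132735570-132737978 and 0.87 at chr7:132712379-132714337. At Il10ra it was -0.80 at chr9:45058246-45059218. Larger effects with LPS were found at Nfil3 (1.00 at chr13:53053956-53056794) and in the Il10rb window (0.70 at chr16:91384864-91388560 and 0.62 at chr16:91401183-91405815). Some peaks were named for a large IL-10 change in one setting, which favours a sign of the difference. They include Nfil3 chr13:53053956-53056794 (named with LPS) and Bcl3 chr7:20401743-20403339 (without LPS).

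The effect of (+)-JQ1 differed in the same test at 9 named peaks, each with a lower value under LPS. The differences were -0.65 and -0.94 at the Sbno2 peaks chr10:79537389-79538417 and chr10:79578359-79579549, -0.74 and -0.74 at the Socs3 peaks chr11:117824483-117825654 and chr11:117830075-117830906, -0.66 at Nfil3 (chr13:53075759-53077327), -0.66 at Etv3 (chr3:87329402-87330318), -0.79 at Il4ra (chr7:132695390-132696028), -0.75 at Bcl3 (chr7:20401743-20403339) and -0.68 at Il10ra (chr9:45101487-45103048). The peaks of Nfil3, Etv3, Il4ra and Bcl3 and Sbno2 chr10:79578359-79579549 were also named for the largest (+)-JQ1-alone change of their gene. The difference subtracts that change, so this choice favours a negative sign there. None of these 9 calls held under every alternative. Of the 16 IL-10 calls, 3 did: the Socs3 promoter, Socs3 chr11:117824483-117825654 and Bcl3 chr7:20401743-20403339.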

How the results depend on the processing

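Counts of member DARs moved most in comparisons with unstimulated cells. With total counts as scaling, LPS gave 24 higher and 9 lower, (+)-JQ1 alone 7 and 18, and IL-10 alone 2 lower, with interaction counts of 4 higher and 3 lower for (+)-JQ1 and 17 and 13 for IL-10. With loess offsets, LPS gave 31 and 8, (+)-JQ1 alone 0 and 14, IL-10 alone 32 and 0, and the interactions 8 and 0 for (+)-JQ1 and 15 and 9 for IL-10. With loess offsets the (+)-JQ1-alone change turned to -0.045 and -0.027 at Socs3 chr11:117824483-117825654 and chr11:117830075-117830906, -0.009 at Nfil3 chr13:53075759-53077327 and -0.037 at Il10rb chr16:91405864-91407251, and the Nfil3 interaction to 0.006. With only the groups compared, (+)-JQ1 alone gave 2 lower, and its interaction 0 higher and 6 lower. DESeq2 gave 2 lower for (+)-JQ1 alone, 1 higher for LPS + (+)-JQ1, and 0 higher and 17 lower for the (+)-JQ1 interaction. At an FDR of 0.01, LPS gave 1 lower, (+)-JQ1 alone 2 lower, IL-10 alone 0 lower, LPS + (+)-JQ1 1 higher and 2 lower, the (+)-JQ1 interaction 0 and 1, and the IL-10 interaction 0 higher. With no minimum fold-change, LPS gave 6 lower and LPS + (+)-JQ1 5 higher. With peaks over the gene body only, LPS gave 16 and 0, (+)-JQ1 alone 13 and 3, IL-10 alone 20 and 0, LPS + (+)-JQ1 0 and 1, LPS + IL-10 19 and 1, and the interactions 6 lower for (+)-JQ1 and 2 and 8 for IL-10. With peaks within 25 kb of a start site, IL-10 alone gave 0 lower and LPS + (+)-JQ1 1 higher. The cause was not tested, except that the narrower windows hold fewer peaks.

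When each replicate was left out, higher and lower DARs ranged over 37 to 53 and 1 to 3 for LPS, 10 to 34 and 1 to 5 for (+)-JQ1 alone, 31 to 63 and 0 to 1 for IL-10 alone, 1 to 4 and 2 to 4 for LPS + (+)-JQ1, 35 to 42 and 2 to 4 for LPS + IL-10, 0 to 1 and 0 to 19 for the (+)-JQ1 interaction, and 0 to 3 and 5 to 23 for the IL-10 interaction. Without unstimulated replicate 1, chosen after seeing the data, (+)-JQ1 alone gave 17 and 2, its interaction 6 lower and the IL-10 interaction 3 higher. With the replicate number as a block, the counts were 52 and 3 for LPS, 31 and 5 for (+)-JQ1 alone, 56 and 1 for IL-10 alone, 2 and 5 for LPS + (+)-JQ1, 54 and 4 for LPS + IL-10, 1 and 10 for the (+)-JQ1 interaction and 6 and 22 for the IL-10 interaction. With the sequencing lane as a covariate, LPS gave 48 higher and LPS + (+)-JQ1 6 lower. With total counts, the summed log2 ratio for IL-10 alone was -0.027 for Il10ra, 0.09 for Il10rb, 0.853 for Socs3, 0.646 for Bcl3, 0.263 for Sbno2, 0.216 for Etv3, 0.289 for Nfil3 and 1.05 for Il4ra, and for LPS + IL-10 0.387 for Bcl3 and 0.294 for Sbno2.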
